A study of Mus musculus with 9 samples.

Results

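Transcripts of 10 antioxidant enzymes were measured in mouse oocytes with XX, XO or XY sex chromosomes. The members were taken by name as Gpx1, Gpx4, Prdx1, Prdx2, Prdx3, Sod1, Sod2, Cat, Txn1 and Txnrd1, and all 10 were found among the 28052 genes of the count matrix. Each genotype had 3 samples, and each sample was a pool of 30 oocytes, of which 10 measured 50–55 μm across and 20 measured 55–60 μm, at 18 dpp (days postpartum). The strain of all samples is labelled C57BL/6 (B6). XY females and their XX littermates were born to B6 mothers and sired by B6.Y-TIR males, in which the Y chromosome comes from a wild-derived domesticus line. XO females came from B6 mothers and Paf carrier males, from a C3H/HeSnJ stock that was backcrossed to B6, so that genotype and residual background cannot be told apart in comparisons with XO. Samples are called XX1 to XX3, XO1 to XO3 and XY1 to XY3. The labels and methods do not give the animals behind each pool, so p-values measure the spread between pools.

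Superoxide dismutases convert superoxide to hydrogen peroxide, and Sod1 works mainly in the cytosol whereas Sod2 works in mitochondria. Hydrogen peroxide is then removed by catalase (Cat), by glutathione peroxidases, which draw on glutathione, and by peroxiredoxins, which are reduced again by thioredoxin (Txn1) with electrons that thioredoxin reductase (Txnrd1) takes from NADPH. Growing oocytes rely on mitochondrial respiration and are known to keep large stores of maternal RNA.

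Libraries were made by Smart-seq3, in which a unique molecular identifier (UMI) marks the 5′ end of each captured transcript. A UMI stands for 1 molecule whatever the transcript length, so levels of different genes were compared without division by length. Levels are given as normalized CPM, counts scaled by library total and by the ERCC spike-in RNAs. Samples held 2130145 to 3157338 gene UMIs. In bulk pools, fewer cells with a transcript and less RNA per cell cannot be told apart. Of the 12 oocyte markers, 11 had at least 10 UMIs in every sample, and their summed level ranged over the samples from 24001 to 28969 normalized CPM for XX, 9959 to 57732 for XO and 14847 to 27392 for XY. For granulosa cells, 6 of 10 markers were in the matrix and summed to a level of 46.6–66.1 for XX, 53.8–64.9 for XO and 55.3–90.9 for XY, with Fshr at 0 to 8 UMIs and Inha at 0 or 1 UMI per sample. Other markers of that list were detected in every sample, with Cyp19a1 at 7 to 147 UMIs, Nr5a2 at 41 to 114 and Kitl at 11 to 63. Markers of theca and stroma (5 of 6 in the matrix) summed to at most 7.48 normalized CPM, and those of immune and blood cells (2 of 7) to at most 1.69. The mitochondrial share of gene UMIs was 13.1% in XO1 and 10.8% in XY1 and lay between 2.65 and 6.02% in the others. XO1 and XY1 also stood apart in several members, and genotype comparisons of members that turned on them are given with and without them. Correlations, spreads within genotypes and the shift with GC content are given with them only.

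In all samples, the peroxiredoxin Prdx1 was by far the most abundant member. Its mean of 8677 normalized CPM ranked 6 among the 28052 genes, and it made up 79.4 to 98.1% of the UMIs of the 10 members. The next was Prdx2 at a mean of 417.6 normalized CPM (rank 339), followed by Txn1 at 83.0, Sod1 at 54.2, Prdx3 at 36.8, Txnrd1 at 16.3 and Sod2 at 7.59. The remaining 3 members were close to the detection limit, with means of 1.19 for Gpx1, 0.382 for Cat and 0.201 for Gpx4. Over all samples, Cat gave 8 UMIs and Gpx4 gave 5, against 193133 UMIs of Prdx1. No member was called in any comparison of genotypes with all 9 samples and spike-in factors, where a call is an unadjusted p below 0.05 in edgeR's quasi-likelihood test.

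**Figure D1:**
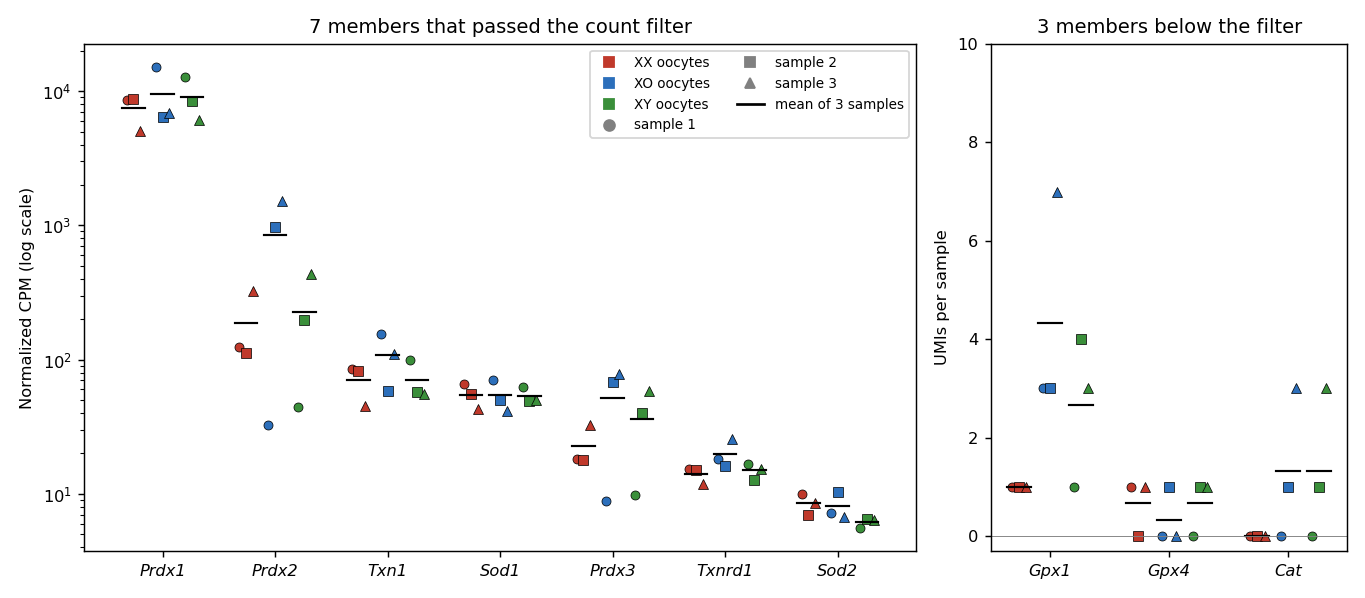
Levels of the 10 members in each of 9 oocyte pools. Left, normalized CPM on a log axis for the 7 members that passed the filter on low counts; right, UMIs per sample for the other 3; colours mark genotypes, symbols mark sample numbers and bars are means of 3 samples. Prdx1 lies above all other members in every pool, and Prdx2 and Prdx3 are lowest in XO1 and XY1.

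The members lie on 8 autosomes (GRCm38), and none is X- or Y-linked. Prdx1 (ENSMUSG00000028691.12) spans 116685544–116700822 on the plus strand of chromosome 4, and Txn1 (ENSMUSG00000028367.5) lies on the minus strand of the same chromosome at 57943373–57956411. Prdx2 (ENSMUSG00000005161.15) is on chromosome 8 at 84969587–84974834, where it overlaps Rnaseh2a and Junb on the opposite strand. Prdx3 (ENSMUSG00000024997.7) is on chromosome 19 at 60864051–60874556. Sod1 (ENSMUSG00000022982.9) is on chromosome 16 at 90220742–90226322 and overlaps Scaf4 on the opposite strand, and Sod2 (ENSMUSG00000006818.4) is on chromosome 17 at 13007839–13018119. Txnrd1 (ENSMUSG00000020250.10) and Gpx4 (ENSMUSG00000075706.10) lie on chromosome 10 at 82833951–82897712 and 80047166–80056439. Gpx1 (ENSMUSG00000063856.7) is on chromosome 9 at 108338903–108340343 and Cat (ENSMUSG00000027187.10) on chromosome 2 at 103453849–103485160. Reads were aligned in stranded mode. Only Txnrd1 overlaps a gene of its own strand, Eid3, and a UMI in the shared part could have been counted for either.

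Promoters of all 10 members were found in the RefSeq table (GRCm38.p6), each window running from 250 bases before to 50 bases after a transcript start. They are shown for Prdx1, the most abundant member, for Sod1, whose level went with that of Prdx1 across samples, and for Prdx3, whose level went the other way. Each is printed from the start of the window to the last base before the annotated gene, at chr4:116685349-116685543 (plus strand), chr16:90220512-90220741 (plus strand) and chr19:60874557-60874788 (minus strand). Capitals mark the core of the antioxidant response element, TGACNNNGC on either strand, which the NRF2 transcription factor is known to bind.
Prdx1: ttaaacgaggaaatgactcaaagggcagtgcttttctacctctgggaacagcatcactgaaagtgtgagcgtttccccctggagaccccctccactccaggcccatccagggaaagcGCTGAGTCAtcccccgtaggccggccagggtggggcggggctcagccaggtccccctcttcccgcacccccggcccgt
Sod1: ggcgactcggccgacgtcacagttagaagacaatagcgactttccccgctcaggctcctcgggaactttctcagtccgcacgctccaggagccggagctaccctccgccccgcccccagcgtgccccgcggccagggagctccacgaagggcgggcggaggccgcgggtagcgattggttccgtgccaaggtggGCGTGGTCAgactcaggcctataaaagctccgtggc
Prdx3: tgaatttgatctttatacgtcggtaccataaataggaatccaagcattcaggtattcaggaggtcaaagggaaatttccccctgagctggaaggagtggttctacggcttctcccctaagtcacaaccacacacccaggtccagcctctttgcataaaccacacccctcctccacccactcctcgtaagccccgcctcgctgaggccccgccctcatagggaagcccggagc
The core stood 133 bases before the transcript start of Prdx1, as GCTGAGTCA on the printed strand, and 56 bases before that of Sod1, as GCGTGGTCA. A further match, GCTTTGTCA, lay 92 bases before 1 of the 3 starts of Txnrd1. The windows of the other 7 members, including all 4 of Gpx4, held no match. Of all 32851 promoter windows, 12.4% held the core, beside 3 of the 15 windows of members. The matches in 3 of 10 members are a description only, and their relation to the levels was not tested. Of members with a match, Sod1 had Pearson's r = 0.84 with Prdx1 over the 9 samples and Txnrd1 had 0.25. Of tested members without a match, Txn1 had 0.81, Sod2 -0.37, Prdx3 -0.82 and Prdx2 -0.83.

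Prdx1, a cytosolic peroxiredoxin, did not differ detectably between genotypes. It was found at 8647, 8793 and 5069.8 normalized CPM in XX1 to XX3, at 15111, 6399 and 6886 in XO1 to XO3, and at 12653, 8453 and 6084 in XY1 to XY3. XO1 and XY1 were the highest samples, and the ranges of all genotypes overlapped. The log2 fold change was -0.34 (SE 0.55) for XX against XO, -0.27 (SE 0.55) for XX against XY and -0.06 (SE 0.55) for XY against XO. The 95% interval of XX against XO ran from -1.57 to 0.90 and so included both no change and a log2 change of -1. Within a sample, Prdx1 ranked 5 to 23 among all genes and made up 0.484 to 1.28% of gene UMIs.

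Prdx2, a close relative in the cytosol that is best known from red blood cells, varied more between pools than the other tested members. Its values were 123.2, 112.4 and 321.7 normalized CPM in XX1 to XX3, 32.6, 972.4 and 1523 in XO1 to XO3, and 44.6, 196.3 and 432.3 in XY1 to XY3. XO thus contained both the lowest and the highest pools of the series. The mean was 185.8 ± 117.8 in XX, 842.5 ± 753.4 in XO and 224.4 ± 195.3 in XY (SD, 3 pools each). The log2 fold change of XX against XO was -2.18 (SE 1.10), which was not called (edgeR unadjusted p = 0.088, adjusted p = 0.33). Nor was XY against XO at -1.91 (SE 1.10, edgeR unadjusted p = 0.13, adjusted p = 0.56) or XX against XY at -0.27 (SE 1.10, edgeR unadjusted p = 0.81). With all samples, calls of Prdx2 depended on the fit. When the count filter was left out, its unadjusted edgeR p was 3.5e-05 in XX against XO (adjusted p = 0.0017) and 2.5e-04 in XY against XO (adjusted p = 0.014), beside 13.5 and 8.70% of all 28051 genes called lower. With 2 surrogate variables kept in the fit, it was at -0.50 (edgeR unadjusted p = 0.045) and -0.45 (edgeR unadjusted p = 0.021), beside 7.24 and 8.48% of all genes.

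These comparisons with XO turned on the pool XO1. Without it, Prdx2 was lower in XX than XO by a log2 fold change of -2.72 (edgeR unadjusted p = 0.0033) and lower in XY than XO by -2.38 (edgeR unadjusted p = 0.0071). Calls rose across all genes as well, since 31.9% of 11590 tested genes were then called lower in XX than XO and 24.2% lower in XY than XO. Without both XO1 and XY1, a choice made after seeing the data, Prdx2 was at -2.72 for XX against XO (edgeR unadjusted p = 4.3e-05) and -1.89 for XY against XO (edgeR unadjusted p = 0.0026).

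Prdx3, the mitochondrial peroxiredoxin, followed Prdx2 at a lower level. It was measured at 18.2, 17.9 and 32.6 normalized CPM in XX1 to XX3, at 8.80, 68.2 and 77.9 in XO1 to XO3, and at 9.76, 40.0 and 58.0 in XY1 to XY3. As for Prdx2, XO1 and XY1 were the lowest pools and XO3 was the highest. No difference was called with all samples, the count filter and spike-in factors, with log2 fold changes of -1.17 (SE 0.77) for XX against XO, -0.66 (SE 0.77) for XX against XY and -0.51 (SE 0.76) for XY against XO. Without the filter, Prdx3 was called lower in XX than XO (edgeR unadjusted p = 0.0087), and with 2 surrogate variables lower in XX than XY (-0.72, edgeR unadjusted p = 0.0023), where 11.2% of all genes were called lower. Without XO1, XX was below XO by -1.63 (edgeR unadjusted p = 0.012). When XO1 and XY1 were both left out, XX was also below XY, by -1.16 (edgeR unadjusted p = 0.0026), where 13.7% of all 11428 tested genes were called lower in XX.

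Sod1, the copper and zinc superoxide dismutase, had nearly equal means in the 3 genotypes. Its level was 66.3, 55.3 and 42.7 normalized CPM in XX1 to XX3, 70.9, 50.1 and 41.2 in XO1 to XO3, and 62.7, 49.2 and 49.8 in XY1 to XY3. The first pool was the highest of each genotype, and the means of 54.7 ± 11.8 in XX, 54.1 ± 15.3 in XO and 53.9 ± 7.66 in XY differed by less than the SD. The log2 fold change of XX against XO was 0.02, with a 95% interval from -0.66 to 0.69. For XX against XY it was 0.02 (interval -0.65 to 0.69), and for XY against XO -0.01 (interval -0.68 to 0.67), the last with a sign that turns under other scalings.

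Sod2, the manganese enzyme of mitochondria, was found at 9.97, 7.003 and 8.53 normalized CPM in XX1 to XX3, at 7.25, 10.3 and 6.77 in XO1 to XO3, and at 5.58, 6.51 and 6.34 in XY1 to XY3. All XY pools were below all XX pools and below all XO pools. The log2 fold change was 0.46 (SE 0.33) for XX against XY (edgeR unadjusted p = 0.18) and -0.40 (SE 0.33) for XY against XO (edgeR unadjusted p = 0.26), and neither was called. These values rest on 12 to 28 UMIs per sample. Among the 10993 tested genes, 4.15% had all XX pools above all XY pools and 6.34% had all XY pools below all XO pools, so that Sod2, as 1 of 7 tested members, is no result about the group.

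Txn1, the cytosolic thioredoxin, had 85.1, 81.6 and 45.1 normalized CPM in XX1 to XX3, 154.8, 58.4 and 110.6 in XO1 to XO3, and 99.0, 57.0 and 55.5 in XY1 to XY3. The highest pool was XO1 and the lowest XX3, and the genotypes overlapped. Its log2 fold change was -0.61 (SE 0.43) for XX against XO and -0.62 (SE 0.43) for XY against XO, and 0.00 for XX against XY with a 95% interval from -0.95 to 0.96. With 2 surrogate variables, Txn1 was called higher in XX than XY at 0.44 (edgeR unadjusted p = 0.027), where 9.19% of all genes were called higher, and its sign in XX against XO turned (0.22), as it did with library sizes set by the spike-in total (0.20). An annotated copy, Txn-ps1, had 5 UMIs over all samples, against 1800 UMIs of Txn1, and their reads may not be fully separable.

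Txnrd1, the cytosolic selenoenzyme that reduces thioredoxin, was at 15.3, 15.1 and 11.9 normalized CPM in XX1 to XX3, at 18.1, 16.03 and 25.4 in XO1 to XO3, and at 16.7, 12.7 and 15.4 in XY1 to XY3. Every XX pool lay below every XO pool, as was true of 13.6% of tested genes. The difference was -0.49 on the log2 scale (SE 0.30, edgeR unadjusted p = 0.13) and was not called. It was close to the median of all tested genes in this comparison, -0.46, and its sign turned when library sizes were set by the spike-in total (0.31). XX against XY was at -0.08 (SE 0.29) and XY against XO at -0.41 (SE 0.30).

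Gpx1, Gpx4 and Cat did not pass the filter on low counts and were not tested in the main comparison. Gpx1, the cytosolic glutathione peroxidase, had 1, 1 and 1 UMI in XX1 to XX3, 3, 3 and 7 in XO1 to XO3, and 1, 4 and 3 in XY1 to XY3. Summed over the pools of a genotype, this was 3 UMIs for XX (exact Poisson 95% interval 0.619 to 8.77), 13 for XO (6.92 to 22.2) and 8 for XY (3.45 to 15.8). In UMIs, the intervals of XX and XO overlapped. Scaled to normalized CPM they did not, at 0.0692 to 0.980 for XX and 1.23 to 3.94 for XO. These intervals cover counting error only and not the spread between pools. Gpx4, the phospholipid hydroperoxide glutathione peroxidase that guards membranes against ferroptosis, had at most 1 UMI in any sample, with sums of 2 for XX, 1 for XO and 2 for XY. Cat, the peroxisomal catalase, had 0 UMIs in all XX pools, for which a floor of 3 UMIs over the genotype is 0.335 normalized CPM and the upper limit of the exact Poisson 95% interval is 3.69 UMIs or 0.412 normalized CPM. XO and XY pools each had 0, 1 and 3 UMIs of Cat in samples 1 to 3. A 5′ count of this kind can miss transcripts that are poorly captured at their 5′ end, so these values show that the transcripts were near the limit of detection in these libraries and not that they were absent from oocytes. When the filter was left out, edgeR gave an unadjusted p of 0.011 for Gpx1 (adjusted p = 0.13) and 0.030 for Cat (adjusted p = 0.26) in XX against XO, in the same fit that called Prdx2 and Prdx3.

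Across genotypes, 0 of the 7 tested members were called in each of the 3 comparisons, with edgeR at unadjusted p below 0.05 and also after adjustment. Of all 10993 tested genes, 1.4% were called higher and 16.7% lower in XX than XO. The shares were 1.41% higher and 4.39% lower for XX against XY, and 1.69% higher and 8.24% lower for XY against XO. The median log2 fold change of the tested members was -0.49 for XX against XO, -0.08 for XX against XY and -0.41 for XY against XO, beside -0.46, -0.19 and -0.30 over all tested genes. These comparisons share samples pairwise and are not independent. With TMM factors taken from genes and not spike-ins, the medians of all genes were -0.12, -0.01 and -0.14 and no member was called. DESeq2 called 1 member, Prdx2, lower in XX than XO (unadjusted p = 0.039) and limma called 0 in every comparison. Without XO1 and XY1, edgeR called 2, 1 and 1 members lower in the 3 comparisons, beside 35.3, 13.7 and 21.0% of all 11428 genes then tested.

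**Figure D2:**
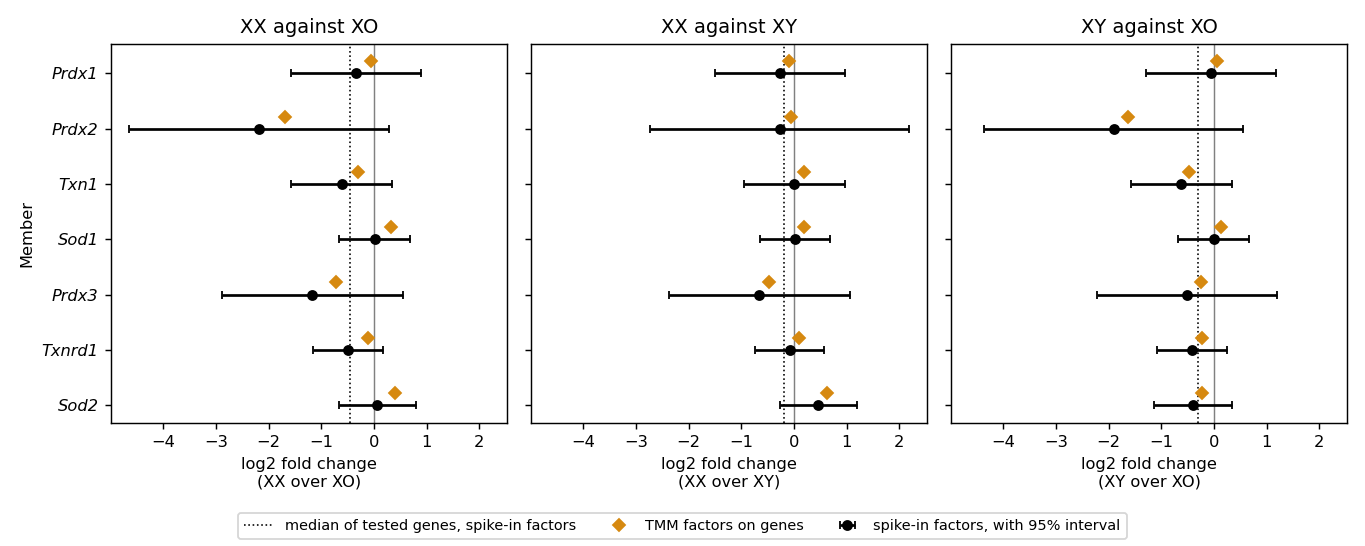
Log2 fold changes of the 7 tested members in the 3 comparisons. Black points are edgeR estimates with spike-in factors and 95% intervals, orange diamonds are estimates with TMM factors on genes, and the dotted line is the median of all tested genes. Every interval includes 0, and the widest belong to Prdx2 and Prdx3.

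Ratios within a sample do not depend on the scaling between samples. The ratio of mitochondrial to cytosolic dismutase, Sod2 to Sod1, was 0.151, 0.127 and 0.2 in XX1 to XX3, 0.102, 0.206 and 0.164 in XO1 to XO3, and 0.0889, 0.132 and 0.127 in XY1 to XY3. The mean log2 ratio of XX exceeded that of XY by 0.45, which did not pass an exact two-sided permutation test (p = 0.3, adjusted p = 1). Txnrd1 to Txn1 ranged from 0.117 in XO1 to 0.277 in XY3, and Prdx3 to Prdx1 from 5.8e-04 in XO1 to 0.0113 in XO3. None of the 9 comparisons of these 3 ratios passed, with an adjusted p of 1 in each exact permutation test. With 3 pools against 3, no p below 0.1 can be reached.

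Within genotypes, members differed in how much they varied. The SD of log2 normalized CPM around the genotype means was 2.05 for Prdx2, at percentile 98.9 of tested genes, and 1.29 for Prdx3, at percentile 91.3. It was 0.56 for Prdx1 and 0.57 for Txn1, near the median of 0.55. Sod1 (0.31), Txnrd1 (0.25) and Sod2 (0.24) were at percentiles 16.9, 9.12 and 7.40. Over the 9 samples, which share libraries, Prdx2 and Prdx3 went together (Pearson's r = 0.97), Prdx1 and Sod1 did so as well (r = 0.84), and Prdx1 went against Prdx2 (r = -0.83). The same pairs gave 0.96, 0.87 and -0.95 with TMM factors. The count of Prdx2 was 0.216% of that of Prdx1 in XO1 and 22.1% in XO3.

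Exogenous RNAs varied between the same samples. The spike-in mix was added in equal amount to each lysis buffer, yet ERCC-00002 made up 0.533% of spike-in UMIs in XO1 and 0.588% in XY1, against 25.5% in XO3. It was at 1.43, 1.34 and 8.31% in XX1 to XX3, 19.7% in XO2, and 3.13 and 9.66% in XY2 and XY3, in the same rank order as Prdx2. ERCC-00130 ran from 1.33% in XO1 to 20.3% in XO3. ERCC-00074 went the other way, from 57.9% in XO1 to 25.7% in XO3. The log level of Prdx2 and the log share of ERCC-00002 had r = 0.987 over the 9 samples. These spike-ins were named after their values were seen, among 13 with a mean of at least 100 UMIs. Their part in the variation of Prdx2 and Prdx3 was not tested. Transcripts of higher GC content also tended to be higher in XO2 and XO3 than in XO1 (Spearman's rho = 0.41 across 10699 genes, which are not independent). Mean transcript GC content was 44.5% for Prdx1, 51.2% for Prdx2 and 45.5% for Prdx3, and the part of GC content was not tested either.

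**Figure D3:**
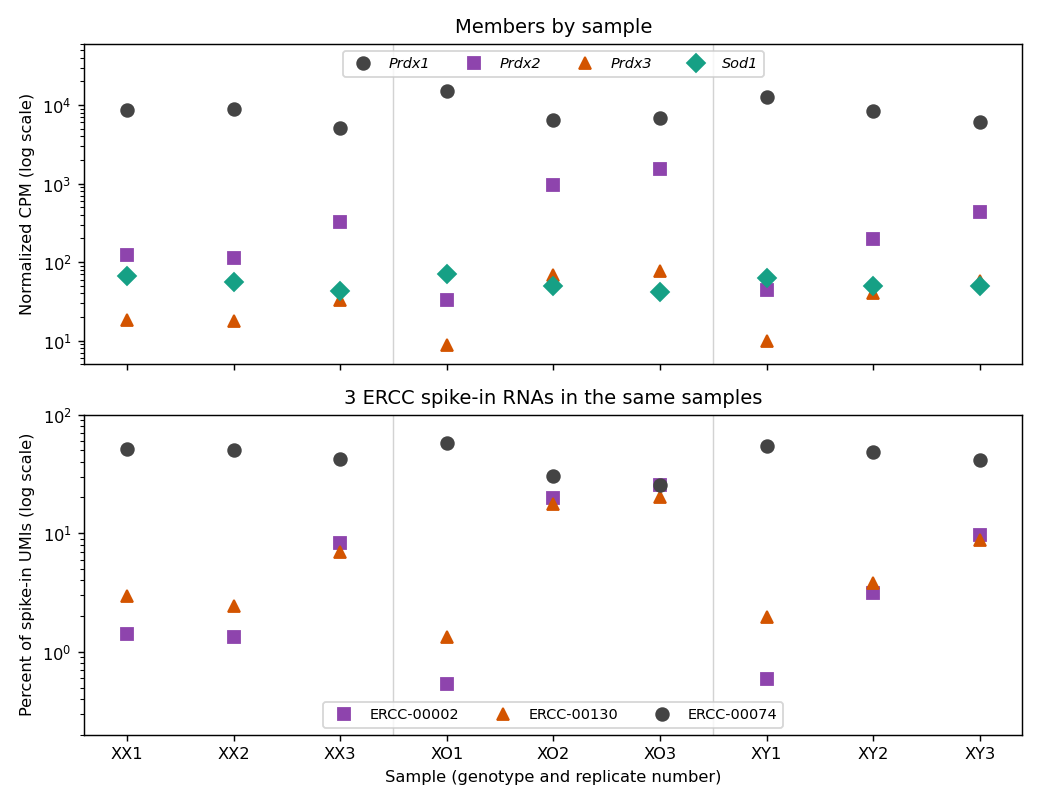
Members and spike-ins by sample, on log axes. Upper panel, normalized CPM of Prdx1, Prdx2, Prdx3 and Sod1; lower panel, the share of spike-in UMIs of ERCC-00002, ERCC-00130 and ERCC-00074. ERCC-00002 is lowest in XO1 (0.533%) and highest in XO3 (25.5%), the pools in which Prdx2 is lowest (32.6) and highest (1523).

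The direction of Prdx2 and Prdx3 depended on which deposited matrix was read. In the log2 matrix that the authors corrected for batch, Prdx2 was 7.97, 8.10 and 8.34 in XX1 to XX3, 7.23, 7.39 and 6.61 in XO1 to XO3, and 7.28, 8.47 and 8.13 in XY1 to XY3. All XX pools were above all XO pools, and the means of the log2 values differed by 1.06 in favour of XX. The edgeR fit to counts scaled to spike-ins had put XX below XO, at a log2 fold change of -2.18. The latter is not a difference of mean log2 values, so only the directions can be compared. Prdx3 was likewise above XO in XX after regression (5.04 ± 0.14 against 4.22 ± 0.42), and Sod1 too (5.92 ± 0.16 against 5.57 ± 0.19), both without overlap. These 3 of 7 members stand beside 39.2% of tested genes with all XX pools above all XO pools in that matrix. Prdx1 stayed level at 12.9 ± 0.18 in XX, 13.1 ± 0.12 in XO and 13.02 ± 0.17 in XY. Sod2 was higher in XX (3.40 ± 0.23) than in XY (2.83 ± 0.20) without overlap, as were 12.3% of tested genes. No test was run on these values. With 2 surrogate variables estimated from the counts and kept in the edgeR fit, Prdx2 was lower in XX than XO, as given above.

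**Figure D4:**
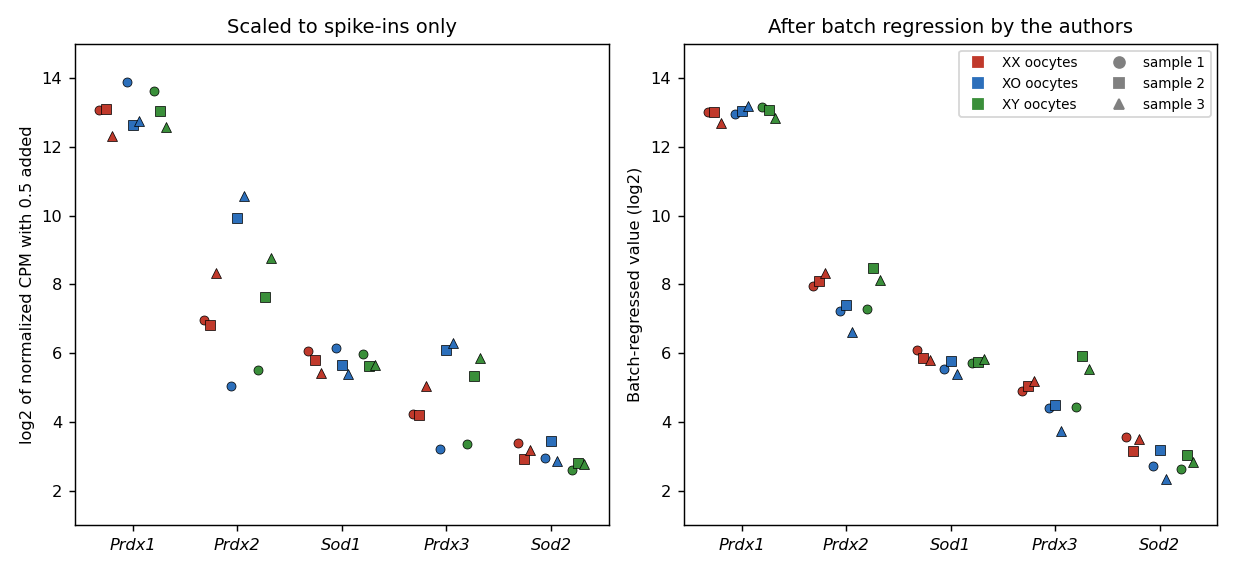
Values of 5 members by sample before and after batch regression, both on log2 axes. Left, log2 of normalized CPM with 0.5 added; right, the batch-regressed matrix of the authors; colours mark genotypes and symbols mark sample numbers. The wide spread of Prdx2 in XO on the left narrows on the right to 6.61 to 7.39, below the XX pools at 7.97 to 8.34.

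The genes whose pattern over the 9 samples was most like that of Prdx1, the member of highest level, were Ssb (r = 0.991), Psmc6 (r = 0.991) and 4933417E11Rik (r = 0.989), where the median over 10992 genes was -0.11. For Prdx2, the member with the smallest p, they were Cd9, Polr2d and Nmt1 (r = 0.998 each), with a median of 0.32. These likenesses are given as a description over samples that share libraries.

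The wider pathway was described by a list of 42 further genes of peroxide removal, glutathione, NADPH supply and NRF2 regulation, of which 40 were in the matrix and 23 were tested. In XX against XO, 0 were called higher and 4 lower, Prdx6, Txnrd3, Txn2 and Txnip, and their share is close to the 16.7% of all genes. Against XY, 0 were called higher and 2 lower in XX, Txnrd3 and Txnrd2, beside 4.39% of all genes called lower. In XY against XO 0 were called by edgeR at unadjusted p below 0.05, 1 by DESeq2 and 0 by limma. Over all genes, 8.24, 10.4 and 5.03% (limma at pseudocount 0.5) were called lower there. With the replicate number as a block, 3 of the list were called lower in XY than XO, beside 14.1% of all genes. Median log2 fold changes of the list were -0.53, -0.27 and -0.33 in the 3 comparisons. In the main edgeR comparison, no call remained after adjustment over all tested genes. Other fits kept some. In XX against XO, DESeq2 kept Prdx6 (adjusted p = 0.048), beside 459 of all genes. There, edgeR without the count filter kept Txnip (adjusted p = 8.6e-05), Prdx6, Prdx5 and Ccs, beside 1607. In XY against XO that fit kept Txnip, Prdx5 and Ccs, beside 783. Prdx5 and Ccs had not passed the filter. With 2 surrogate variables, edgeR kept G6pdx in XX against XO (adjusted p = 0.027), beside 175. It kept G6pdx and Idh1 in XX against XY, beside 767, and Idh1 and Txnip in XY against XO, beside 313. Without XO1, or without XO1 and XY1, further calls of the list were kept. With library sizes from the spike-in total, edgeR called 0 of the list in XX against XO and in XX against XY. Over all genes, 0.482 and 0.364% were called lower there.

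Prdx6, a peroxiredoxin with a single catalytic cysteine, was lower in XX, at 2.49, 1.75 and 2.74 normalized CPM, than in XO at 3.62, 12.4 and 12.4, while XY was at 2.79, 3.58 and 6.94. The log2 fold change of XX against XO was -2.0 (SE 0.57, edgeR unadjusted p = 0.0059, adjusted p = 0.20), and the call remained when any single pool was left out. Txnrd3, a reductase that acts on thioredoxin and glutathione, was at 3.56, 3.15 and 2.44 in XX, 5.70, 7.24 and 7.34 in XO, and 5.11, 5.21 and 7.24 in XY. It was lower in XX than in XO by -1.14 (SE 0.37, edgeR unadjusted p = 0.011) and than in XY by -0.94 (SE 0.36, edgeR unadjusted p = 0.026). The first of these calls was lost without XX3, and the second without XX2, XX3 or XY3. These values rest on few UMIs per pool. Prdx6 had 5 to 9 in XX and 7 to 24 in XO. Txnrd3 had 8 to 10 in XX, 11 to 14 in XO and 11 to 24 in XY.

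Txnrd2, the mitochondrial reductase, was at 8.90, 5.60 and 5.48 normalized CPM in XX, 20.5, 9.44 and 9.06 in XY, and 9.84, 8.27 and 10.7 in XO. Its call in XX against XY (-0.95, SE 0.41, edgeR unadjusted p = 0.044) was lost without XX2, XX3, XY1, XO2 or XO3. Txnip, which binds and blocks thioredoxin, was at 66.6, 55.7 and 167.6 in XX, 28.5, 669.5 and 983.4 in XO, and 27.0, 107.1 and 267.7 in XY. As for Prdx2, XO1 and XY1 were its lowest pools and XO3 its highest. Its call in XX against XO (-2.53, SE 1.07, edgeR unadjusted p = 0.049) was kept without XO1 or XY1 and lost without any other single pool. In the batch-regressed matrix, Txnip had the other direction, at 7.03, 7.03 and 7.42 in XX and 6.89, 6.99 and 6.19 in XO. All XX pools were above all XO pools there, as for 39.2% of tested genes. Txn2, the mitochondrial thioredoxin, was below the level set for naming and is given because it was called. It was at -1.26 for XX against XO (SE 0.41, edgeR unadjusted p = 0.012), a call that was lost without XX3 or XO3. It had 7 to 9 UMIs per pool in XX and 9 to 16 in XO.

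The list also held transcripts of high level. Glrx, a glutaredoxin that reduces mixed disulfides of proteins with glutathione, had a mean of 2072 normalized CPM (rank 71), above every member but Prdx1. It was at 2699, 2648 and 2272 in XX, 794.8, 2033 and 2002 in XO, and 1703, 2500.1 and 1997 in XY, and XX against XO was 0.66 (SE 0.44, edgeR unadjusted p = 0.17). It was called higher in XX with TMM factors on genes (1.07, edgeR unadjusted p = 0.031), where 4.36% of all genes were, and with 2 surrogate variables (0.82, edgeR unadjusted p = 0.0091). Me1, a cytosolic malic enzyme that supplies NADPH, had a mean of 583.1. G6pdx, the X-linked first enzyme of the pentose phosphate pathway, had a mean of 415.7. G6pdx was at 403.6, 333.3 and 736.7 in XX, 51.8, 621.4 and 738.4 in XO, and 91.6, 288.4 and 475.7 in XY, with log2 fold changes of 0.06 (SE 0.85) for XX against XO and 0.78 (SE 0.85) for XX against XY that were not called. With 2 surrogate variables G6pdx was called higher in XX, by 1.00 than XO (edgeR unadjusted p = 2.5e-04) and by 0.84 than XY (edgeR unadjusted p = 8.2e-06), beside 7.06 and 9.19% of all genes called higher. In the batch-regressed matrix its XX pools, at 9.35 to 9.63, lay above all XO pools (6.60 to 7.43) and all XY pools (7.78 to 8.83), as did 39.2 and 12.3% of tested genes. Gpx6, which carries a cysteine in place of selenocysteine in rodents, had a mean of 173.8 and was the most abundant glutathione peroxidase, against 1.19 for Gpx1.

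**Figure D5:**
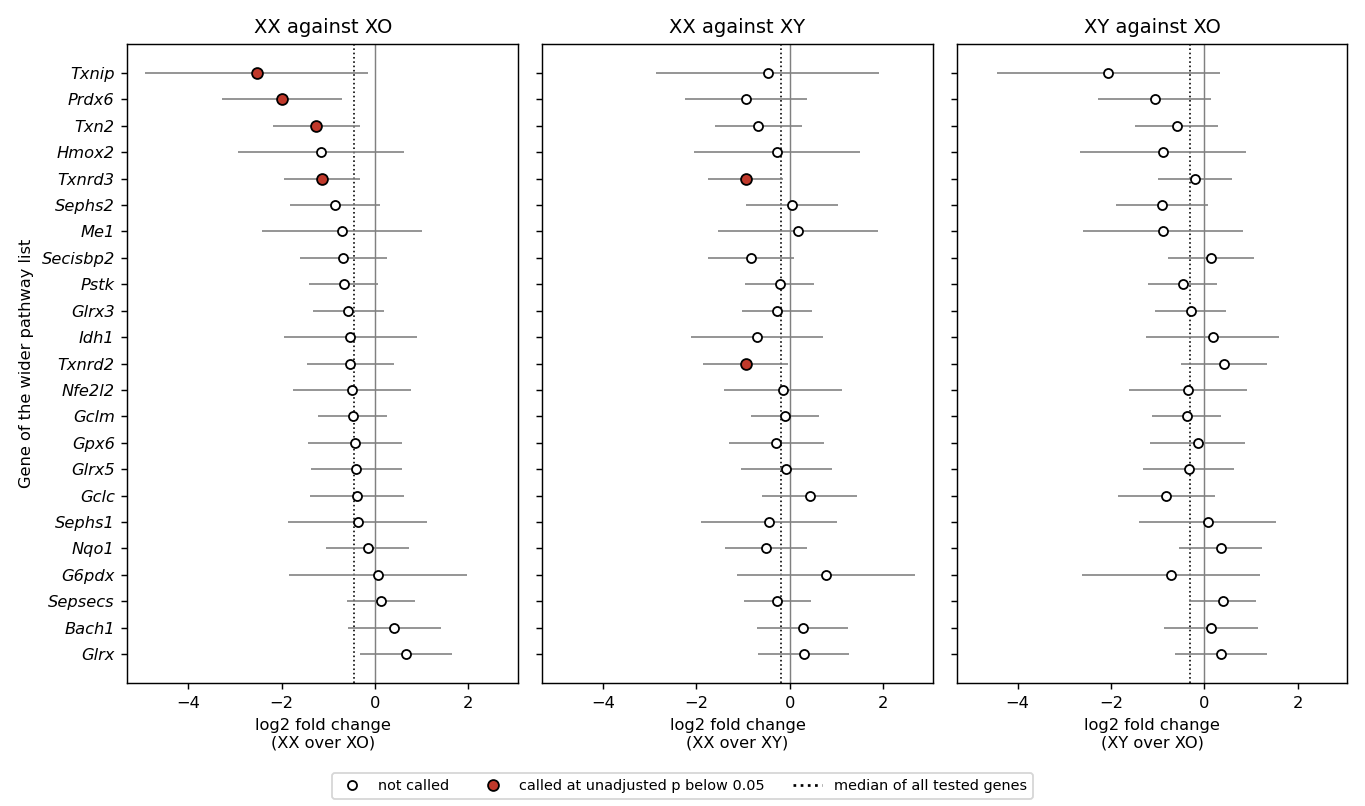
Log2 fold changes of the 23 tested genes of the wider pathway list in the 3 comparisons, with 95% intervals. Filled points were called at unadjusted p below 0.05 and the dotted line is the median of all tested genes. Filled points number 4 in XX against XO and 2 in XX against XY, all lower in XX.

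By role, 3 of 4 tested genes of the thioredoxin system and 1 of 1 tested peroxiredoxin were called lower in XX than XO, where 16.7% of all genes were. All 3 calls of the thioredoxin system were lost without XX3. The other roles were tested with all 9 samples, the count filter, spike-in factors, and neither surrogate variables nor a block. None was called there among 5 tested genes of glutathione synthesis and glutaredoxins or 3 of NADPH supply. Nor was any among 4 of NRF2 regulation and 5 of selenoprotein synthesis, in any comparison. Other fits did call some of them. Without the count filter, Hmox2 was called lower in XX than XO (edgeR unadjusted p = 0.014), beside 13.5% of all genes. Sephs2 was called lower in XY than XO in that fit (edgeR unadjusted p = 0.048), beside 8.70%. With 2 surrogate variables, G6pdx, Glrx and Sepsecs were called higher in XX than XO, beside 7.06% of all genes. Without XO1, Hmox2, Idh1, Me1 and Sephs2 were called lower in XX than XO, beside 31.9% of all genes, and Hmox2, Me1 and Sephs2 lower in XY than XO, beside 24.2%. Nfe2l2, which encodes NRF2, was at a log2 fold change of -0.49 (SE 0.56) in XX against XO and was called there only without both XO1 and XY1 (-0.87, edgeR unadjusted p = 0.015, beside 35.3% of all genes). Its sign turned with library sizes from the spike-in total (0.46), and Keap1 was not among the tested genes.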

How the data were processed

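RNA of 9 oocyte pools was analysed. Reads were mapped by the authors in stranded mode (Hisat2, GRCm38, Gencode), who deposited 5′ UMIs per gene as counts. They deposited a second matrix as a signal named normalized CPM, which equals the counts divided by library total and spike-in TMM factor (largest difference 4.9e-11 when recomputed here). A further matrix they deposited holds log2 values from which batch effects were regressed out. The methods name cleaningY of the jaffelab package for such values, and sva for finding the batch effects. The versions are not given in the sources used here, and limma is named in the processing notes of the submitters. No column was left unmapped, and the XO column without a number was taken as XO1.

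Counts were tested with edgeR 4.0.16 (quasi-likelihood F test, two-sided, 1 mean per genotype, all 9 samples) on 10993 genes kept by filterByExpr, with gene UMIs times the spike-in TMM factor as library size. A call is an unadjusted p below 0.05, with Benjamini-Hochberg values over all tested genes beside it. The study took the same threshold, but in a limma model with surrogate variables as covariates. The main fit here has no such covariates, so its calls and shares of called genes cannot be set beside those of the study. limma 3.58.1, DESeq2 1.42.0 and sva 3.50.0 served for alternatives, and scipy 1.17.1 for exact permutation tests. The edgeR fit was tested on simulated data. Ratios with Gpx4 could not be formed because of counts of 0, which left 9 of 12 planned comparisons. Intervals and the floor of 3 UMIs per genotype cover counting error only.

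The members and lists were chosen with earlier results of these data known. Named are all members, the called genes of the wider list whose mean reached 5 normalized CPM (at most 5 per comparison by smallest p), the 5 of highest level, and the 3 genes most like the highest member and the member with the smallest p by Pearson's r of log2(normalized CPM + 1). Nfe2l2, Keap1, Txn2, Sepsecs, Sephs2, Hmox2, Idh1, Prdx5 and Ccs were named after their values were seen. Deviations of samples with the same number from their genotype means correlated at 0.82, 0.27 and 0.77 for XY and XO. The values were 0.45, -0.43 and 0.66 for XX and XO, and 0.42, -0.06 and 0.71 for XX and XY. Any pairing by number could be judged from these values alone. The main fit used no pairing, and the block by replicate number was an alternative over all 3 genotypes.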

Additional observations from a re-analysis of the deposited data

How the results depend on the processing

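No alternative with all samples and the count filter called more than 2 of the 7 tested members. For XX against XO the number of members called was 0 with edgeR and either scaling, 1 with DESeq2, 4 of all 10 without the count filter, 1 with 2 surrogate variables and 2 without the pools of highest mitochondrial share (XO1 and XY1, a choice made after seeing the data), all lower in XX. The shares of all genes called lower in these 4 fits were 19.7, 13.5, 7.24 and 35.3%. For XX against XY it was 2 with surrogate variables, Txn1 higher and Prdx3 lower in XX (9.19 and 11.2% of all genes), and 1 lower without these pools (13.7%). For XY against XO it was 1 lower without the filter, 1 with surrogate variables and 1 without these pools (8.70, 8.48 and 21.0%). When single pools were left out it was 0 to 2, 0 to 0 and 0 to 1 in the 3 comparisons, with every call made without XO1. In these fits, a genotype left with 2 pools is assumed to vary like the others.

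The block by replicate number changed no call of a member, but Prdx2 turned to 0.34 in XX against XY and Sod1 to 0.023 in XY against XO. With the block and TMM factors on genes together, Prdx1 turned to 0.084 in XX against XO and 0.12 in XY against XO, Prdx2 to 0.49 in XX against XY, Sod1 to 0.19 in XY against XO and Txnrd1 to 0.10 in XX against XY. Of the wider list, the block moved the calls in XY against XO from 0 to 3, and with TMM factors the block gave 2 in XX against XO and 2 in XY against XO. The calls of the list in XX against XO were 0 with library sizes from the spike-in total and 9, all lower, without XO1 and XY1. Beside them, 0.482 and 35.3% of all genes were called lower. Of the calls of the list, 3 of 5 with surrogate variables, 1 of 4 with TMM factors and 1 of 2 with TMM factors and the block were higher in XX. Over all genes, these fits called 7.06, 4.36 and 6.60% higher and 7.24, 7.91 and 11.2% lower in XX. The list genes called higher were G6pdx, Glrx and Sepsecs with surrogate variables and Glrx in both others. In the main comparison these genes were at 0.06, 0.66 and 0.13 and were not called, so other genes were called and none turned direction. In XX against XY the calls of the list were 1 with TMM factors and 0 with the spike-in total. They were 1 with limma at either pseudocount (0.5 or 1), 1 without the filter and 5 without XO1 and XY1. Called lower in XX in these fits were 2.47, 0.364, 4.12 (4.10 at pseudocount 1), 3.52 and 13.7% of all genes. In XY against XO the calls of the list were 1 with DESeq2, 4 without the filter, 6 with surrogate variables and 5 without XO1 and XY1. Of all genes, 10.4, 8.70, 8.48 and 21.0% were called lower in XY in these fits, and 9.77% higher with surrogate variables. Of the 6 calls of the list with surrogate variables, 5 were higher in XY, whereas those of the other fits were lower. Leaving out single pools gave 1 to 8, 0 to 3 and 0 to 5 calls of the list. The 8 and the 5 came without XO1, beside 31.9 and 24.2% of all genes called lower. The 3 came without XO1, XX1 or XY2, beside 8.78, 3.89 and 3.63% called lower.

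Other signs turned as well, among them estimates away from 0 such as that of Txn1 in XX against XO (-0.61). With TMM factors on genes, Prdx1 was at 0.054 and Sod1 at 0.13 in XY against XO, and Txnrd1 at 0.10 in XX against XY. With library sizes set by the spike-in total, the median of all genes moved to 0.42, 0.49 and -0.11. Prdx1 was then at 0.51, 0.46 and 0.057 in the 3 comparisons, Prdx2 at 0.42 in XX against XY, Sod1 at 0.17 in XY against XO, Txn1 at 0.20 in XX against XO, and Txnrd1 at 0.31 in XX against XO and 0.56 in XX against XY. By limma, Prdx2 was at 0.076 (pseudocount 0.5) and 0.074 (pseudocount 1) in XX against XY, Sod1 at 0.022 with both in XY against XO, and Txn1 at -2.8e-05 in XX against XY with 0.5. With 2 surrogate variables, Prdx3 was at 0.038 and Sod1 at 5.6e-04 in XY against XO, Sod2 at -0.11, Txn1 at 0.22 and Txnrd1 at 0.20 in XX against XO, and Txnrd1 at 0.22 in XX against XY. Without XO1 and XY1, Prdx1 was at 0.23 in XX against XO and 0.24 in XY against XO, Sod1 at 0.23 in XY against XO and G6pdx at -0.43 in XX against XO. Nfe2l2 in XX against XO turned to 0.46 with the spike-in total, 0.074 with the block and TMM factors, and 0.099 with surrogate variables. The cause of these changes was not tested.

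Over the fits without 1 pool each, Prdx1 ranged from -0.55 to 0.23, -0.48 to 0.046 and -0.38 to 0.51 in the 3 comparisons, and Sod1 from -0.15 to 0.32, -0.065 to 0.17 and -0.17 to 0.31. Prdx2 in XX against XY ranged from -0.99 to 0.63, Txn1 there from -0.13 to 0.33 and Txnrd1 there from -0.20 to 0.016. In XX against XO, Sod2 ranged from -0.049 to 0.28 and G6pdx from -0.43 to 0.55. The log2 ratio of Prdx3 to Prdx1 differed by -1.86 to 0.28, -1.16 to 0.66 and -1.75 to 0.70 in the 3 comparisons, that of Txnrd1 to Txn1 by -0.28 to 0.33, -0.27 to 0.086 and -0.20 to 0.41, and that of Sod2 to Sod1 by -0.24 to 0.27 in XX against XO. Adding 1 UMI to both genes of a ratio changed no direction. Depth limits Gpx1, Gpx4 and Cat, which had 0 to 7 UMIs per pool.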
